A study of Mus musculus with 50 samples.

Results

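The genes described here are 10 targets of the transcription factor p53, chosen by name: Cdkn1a, Mdm2, Trp53inp1, Ccng1, Bbc3, Bax, Phlda3, Zmat3, Sesn2 and Eda2r. All 10 had a row in both tables of read counts, each of which lists 33924 genes. RNA was sequenced from 50 libraries of mouse blood-forming cells in 16 groups. LSK are lineage-negative, Sca-1-positive, Kit-positive marrow cells, the fraction that holds the stem cells, and GMP are granulocyte-monocyte progenitors. The first table held LSK and GMP of WT mice at 4 weeks and of mice of genotype Flt3 at 2, 4, 6 and 8 weeks, with 3 libraries in each of these 10 groups. The second table held LSK and GMP of genotype Npm1 Flt3 (4 libraries each) and Dnmt3a Flt3 (3 each). It also held Lin- HSPCs, which are progenitors depleted of mature lineages, of Npm1 Flt3 mice given TAM (tamoxifen) or Vehicle for 7 days (3 each). All mutant groups therefore carried an Flt3 mutation, and tamoxifen served to remove the mutant Flt3 allele while the Npm1 mutation stayed. Cre, Dre or Flp recombinase switched the mutations on, and the labels name neither the promoter behind the recombinase, the exact alleles, the strain and age of the mice, nor the event from which the weeks were counted. Mice were taken at the stated time or once they had symptoms.

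In unstressed cells the ubiquitin ligase Mdm2 keeps p53 protein low, and DNA damage or oncogenic signalling lets p53 accumulate and switch on its targets, Mdm2 among them. The targets act on different processes: Cdkn1a encodes p21, which inhibits cyclin-dependent kinases and halts the cell cycle, Ccng1 encodes cyclin G1, and Bax and Bbc3 (Puma) start cell death at the mitochondrion. In blood stem and progenitor cells p21 restrains division and Puma is a main mediator of death after irradiation, and several of these genes also respond to factors other than p53.

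The promoters of Cdkn1a, Ccng1 and Bbc3 are shown because they carry the closest matches to the p53 full site among the windows of these genes, and because the results for them differed. RefSeq windows of GRCm38.p6, from 250 bases before to 50 after a start, were searched on both strands for the p53 consensus of 20 bases without a spacer, with its 4 core letters required to match. The capitals mark the best match, and each stretch is given 5′ to 3′ on the strand of the gene.
Cdkn1a: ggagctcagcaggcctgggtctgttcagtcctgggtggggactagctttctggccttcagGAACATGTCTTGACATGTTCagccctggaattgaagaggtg
Ccng1: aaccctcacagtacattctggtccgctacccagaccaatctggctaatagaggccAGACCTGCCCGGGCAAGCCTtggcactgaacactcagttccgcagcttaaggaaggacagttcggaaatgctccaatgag
Bbc3: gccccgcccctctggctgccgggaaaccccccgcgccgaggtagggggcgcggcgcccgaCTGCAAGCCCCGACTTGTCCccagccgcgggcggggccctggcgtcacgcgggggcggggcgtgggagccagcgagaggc
The Cdkn1a stretch covers chr17:29090868-29090968 (plus strand), and its match, with 1 mismatch, lies 51 to 32 bases before the upstream of 2 annotated starts. The Ccng1 stretch covers chr11:40755402-40755536 (minus strand), with 1 mismatch at 195 to 176 bases before the start. The Bbc3 stretch covers chr7:16309426-16309565 (plus strand), with 3 mismatches at 97 to 78 bases before the most upstream of 3 starts searched. The best matches at its other starts had 7 and 8 mismatches. In GENCODE M21 the Bbc3 gene begins at chr7:16308393, so this stretch lies inside it. No stretch overlaps an annotated exon. At most 1 mismatch was found in 22 of 32851 windows of all genes (0.067%), and at most 3 in 453 (1.379%). The best matches in the promoters of Phlda3, Bax, Mdm2, Sesn2 and Eda2r had 5 to 9 mismatches, and the table held no window for Trp53inp1 or Zmat3. TTCNNNGAA, the letters of a STAT site, was in none of the 11 windows of these genes and in 8.298% of all windows. These matches describe letters only, and binding was not measured.

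Libraries of the first table held 306571 to 8249135 counts, except for replicate 2 of the Flt3 8-week GMP with 1942 counts, which stayed in the fits and out of means and ranges. Those of the second held 15053592 to 128057407. Replicate 1 of the Dnmt3a Flt3 LSK and replicate 2 of the Dnmt3a Flt3 GMP have sample codes whose last letter names the other cell type than their titles, so they were kept out of fits and means. By these codes they come from the same mice as replicate 2 of the Dnmt3a Flt3 LSK and replicate 1 of the Dnmt3a Flt3 GMP. The sort was visible in the markers: 8 LSK marker genes summed to 1738 to 1987 CPM (a gene's share of the library's counts, times 1e6) in WT LSK and 609 to 713 in WT GMP, and 8 GMP markers to 3080 to 4775 and 45728 to 55701. The codes of the WT and Flt3 mice have different prefixes, so genotype and series cannot be told apart, and the same holds for Npm1 Flt3 and Dnmt3a Flt3. Each change is a log2 fold change ± SE fitted with edgeR's quasi-likelihood test, and a gene rose or fell where the Benjamini-Hochberg adjusted p over all genes tested was under 0.05.

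The first comparison set Flt3 LSK, over all 4 time points, against WT LSK. Cdkn1a rose in Flt3 LSK, and Bax rose by less. No other of the 6 members with enough counts passed the test. Thus 2 of 6 rose and none fell, where 15.0% of the 9892 genes tested were called (6.89% higher and 8.07% lower). The median of the 6 was 0.25, against −0.005 for all genes tested.

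Cdkn1a (chr17:29090976-29100727 in GRCm38) stood at 23.2, 12.4 and 8.45 CPM in the 3 WT LSK libraries. In Flt3 LSK it read 50.8, 67.9 and 38.4 CPM at 2 weeks and 104, 139 and 106 CPM at 4 weeks. It read 111, 95.1 and 114 CPM at 6 weeks and 105, 114 and 94.6 CPM at 8 weeks. Every one of the 12 Flt3 LSK libraries was above every WT LSK library. The fitted rise was 2.68 ± 0.24 (adjusted p = 2.2e-09), or 6.42-fold. The WT levels rest on 66, 10 and 22 counts, so their spread is partly counting error. In these bulk populations, fewer cells of a type and less RNA per cell cannot be told apart.

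In GMP Cdkn1a also rose, and at 2 weeks its libraries still overlapped WT. WT GMP read 15.8, 14.9 and 17.4 CPM. Flt3 GMP read 23.6, 16.0 and 22.1 CPM at 2 weeks and 66.4, 72.2 and 57.8 CPM at 4 weeks. It read 85.7, 76.2 and 61.2 CPM at 6 weeks and 72.3 and 60.3 CPM at 8 weeks. All 8 later libraries lay above both the WT and the 2-week libraries. Over all time points Cdkn1a rose by 1.55 ± 0.23 (adjusted p = 1.2e-06), or 2.92-fold, the only call among 5 members tested. In GMP 26.2% of 9122 genes were called, 13.1% higher and 13.2% lower. With the 2-week groups alone set against WT, a comparison added after the data were seen in which the time point differs too since WT mice were taken only at 4 weeks, Cdkn1a gave 0.55 ± 0.28 in GMP (adjusted p = 0.141) and 2.11 ± 0.28 in LSK.

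**Figure D1:**
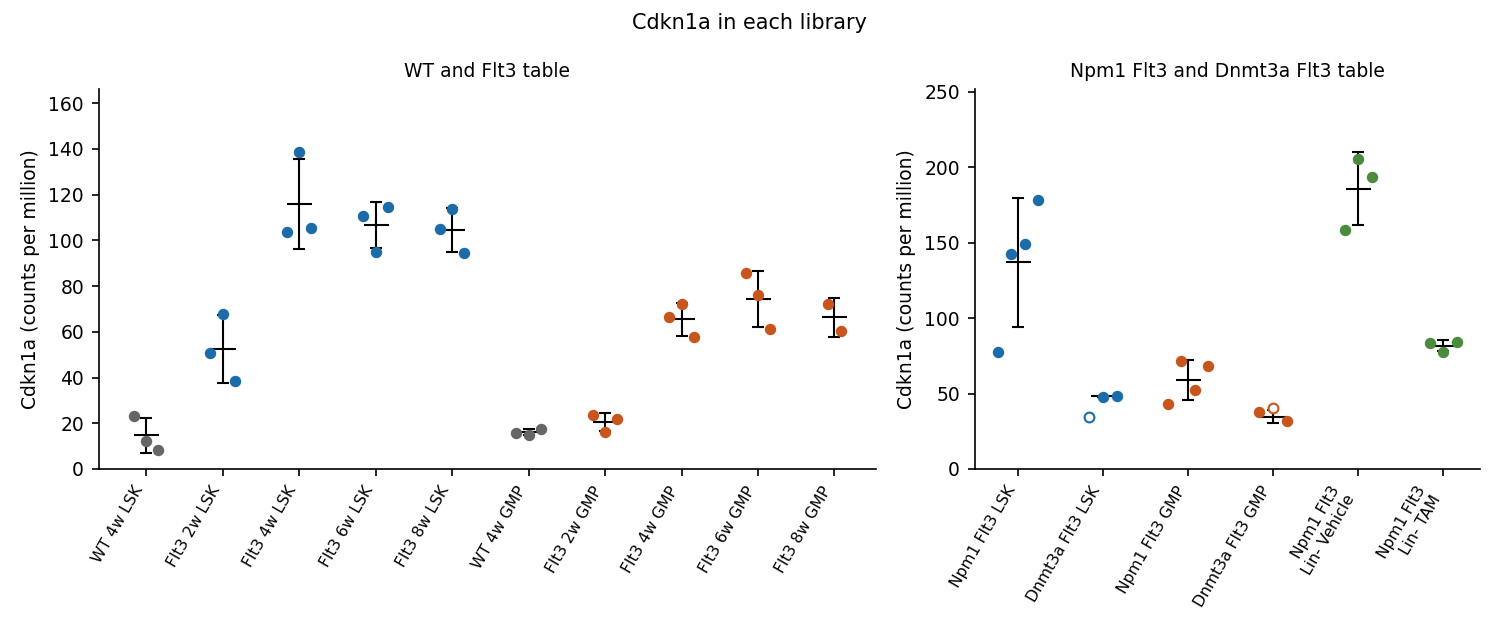
Cdkn1a in CPM (vertical axis, linear from 0) in every library by group, with WT and Flt3 at left and the groups of the second table at right. Points are libraries, open points those with conflicting labels, and bars the mean ± SD: all Flt3 LSK points lie above the 3 WT LSK points, while the 2-week Flt3 GMP points (16.0 to 23.6) overlap WT GMP.

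Ordered by level, the 10 groups of the first table fell into 3 runs. The lowest run held WT LSK (14.7 ± 7.6 CPM, SD, n = 3), WT GMP (16 ± 1.3) and Flt3 GMP at 2 weeks (20.5 ± 4), whose libraries overlap. The middle run held Flt3 LSK at 2 weeks (52.4 ± 15) and Flt3 GMP at 4 (65.5 ± 7.3), 8 (66.3 ± 8.4, n = 2) and 6 weeks (74.4 ± 12). The highest run held Flt3 LSK at 8 (104 ± 9.6), 6 (107 ± 10) and 4 weeks (116 ± 20). Neighbours within a run overlapped, and no library of a higher run fell into the range of a lower one. Within Flt3 cells, Cdkn1a was lower at 2 weeks than at 4 to 8 weeks by −0.76 ± 0.21 in LSK (adjusted p = 0.011) and −1.32 ± 0.22 in GMP (adjusted p = 4.8e-06). The LSK difference gave −0.61 (adjusted p = 0.104) without replicate 3 of the 2-week LSK.

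Markers of other cells moved with these time points. The summed level of 8 dendritic cell markers was 11301 to 20774 CPM in 2-week Flt3 LSK, 1596 to 11720 in the later Flt3 LSK and 281 to 517 in WT LSK, with Cd209a at 0 in WT. All 8 were higher at 2 weeks than later in LSK. In 2-week Flt3 GMP, 8 basophil and mast cell markers summed to 57629 to 70990 CPM against 346 to 1153 in the later Flt3 GMP and 1349 to 1648 in WT GMP, and all 8 were higher. Against WT LSK, all 7 erythroid and all 7 macrophage markers tested fell in Flt3 LSK, from sums of 1459 to 1831 and 320 to 2090 CPM to 94.6 to 398 and 13.7 to 60.1. Of the 8 LSK markers, 6 fell and 2 rose in Flt3 LSK against WT LSK, with a median of −1.63. All 8 GMP markers fell in Flt3 GMP, to 15023 to 31506 CPM. All 7 dendritic cell markers tested rose in Flt3 GMP against WT GMP, with a median of 5.74. The part of these cells in the Cdkn1a levels was not tested.

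The rise of Cdkn1a was larger in LSK than in GMP. The difference of the Flt3 effects, LSK minus GMP, was 1.14 ± 0.32 (adjusted p = 0.013), and 1.27 ± 0.33 (adjusted p = 0.0053) with LSK and GMP of an animal paired by a block. In WT mice, Cdkn1a differed between LSK and GMP by −0.40 ± 0.29 (adjusted p = 0.314), and by −1.06 (adjusted p = 0.016) without replicate 1 of the WT LSK. The difference of effects lost its call with DESeq2 (0.99, adjusted p = 0.107, but 1.16, adjusted p = 0.0070 without the near-empty 8-week GMP library), in the 4-week groups alone (1.11, adjusted p = 0.0745) and without replicate 3 of the WT LSK (0.81, adjusted p = 0.111). Of the 6 members tested for this difference, only Cdkn1a was called with a higher value in LSK and only Bbc3 with a lower one. Of 10287 genes, 12.4% were called (6.59% higher and 5.83% lower in LSK than in GMP).

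Mdm2 (chr10:117688875-117710758), the feedback inhibitor of p53, had no call in either cell type. It read 48.8, 54.4 and 63.4 CPM in WT LSK. The 12 Flt3 LSK libraries ran from 29.4 to 60.1 CPM with a median of 49.5. Its change was −0.11 ± 0.20 (adjusted p = 0.794), and the groups overlap. In GMP it read 26.6, 40.3 and 30.2 CPM in WT and 34.9 to 67.1 in Flt3 with a median of 44.3, a difference of 0.34 ± 0.21 (adjusted p = 0.250). Trp53, the gene of p53 itself, ranged from 260 to 333 CPM in WT LSK and 230 to 419 in Flt3 LSK (0.26 ± 0.10, adjusted p = 0.105). In GMP Trp53 differed by 0.05 (adjusted p = 0.848). Within Flt3 GMP it was lower at 2 weeks than at 4 to 8 weeks (−0.43 ± 0.14, adjusted p = 0.020). Mdm4, a relative of Mdm2 that holds p53 inactive, was low and gave 0.78 ± 0.50 in LSK (adjusted p = 0.336).

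Ccng1 (chr11:40748552-40755311), whose promoter match is as close as that of Cdkn1a, showed no call in either cell type. It read 43.5, 53.2 and 59.5 CPM in WT LSK and 45.7 to 84.2 in Flt3 LSK with a median of 61.5. The difference was 0.33 ± 0.18 (adjusted p = 0.249). In GMP it read 50.3, 43.8 and 43.6 CPM in WT and 36.1 to 80.7 in Flt3 with a median of 56.1, a difference of 0.13 ± 0.20 (adjusted p = 0.674). The ranges overlapped in both.

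**Figure D2:**
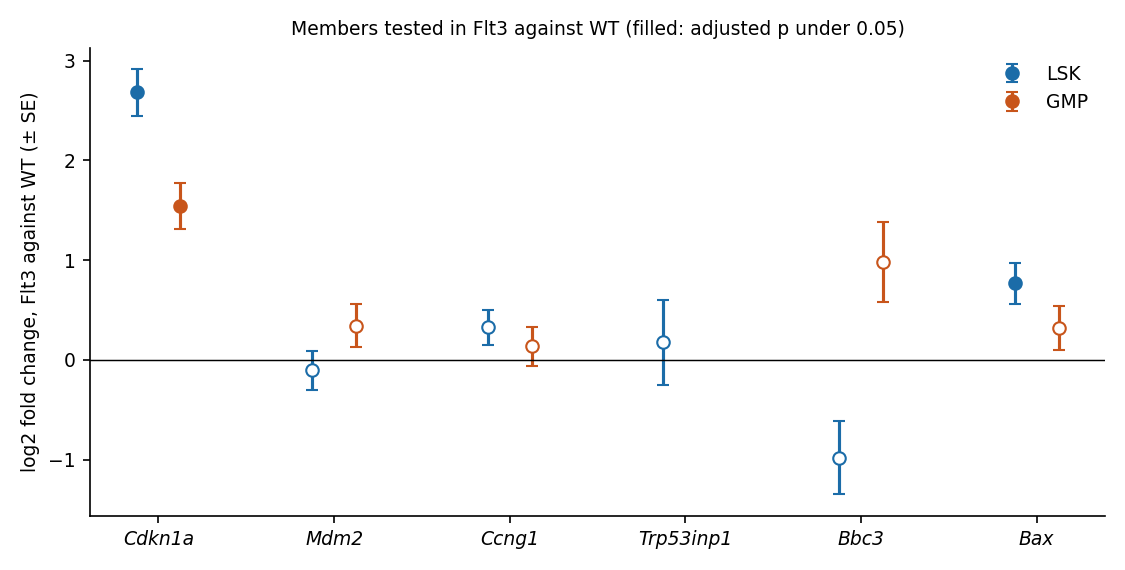
Log2 fold change of Flt3 against WT (vertical axis) with its SE for the members tested, in LSK and GMP, filled where the adjusted p was under 0.05. Cdkn1a stands apart at 2.68 in LSK and 1.55 in GMP, and Bax at 0.77 in LSK is the only other filled point.

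Among the death genes, Bax (chr7:45461697-45466898), which opens the outer mitochondrial membrane, read 36.8, 24.7 and 34.6 CPM in WT LSK. In Flt3 LSK it read 60.5, 62.1 and 54.0 CPM at 2 weeks, and the 12 libraries had a median of 54.6. Of those 12, only replicate 2 at 8 weeks, at 24.9 CPM, lay within the WT range. Bax rose by 0.77 ± 0.20 (adjusted p = 0.0090), or 1.70-fold. That call was lost in the 4-week groups alone (0.70, adjusted p = 0.0719), without the 2-week libraries (0.64, adjusted p = 0.0563) and without replicate 2 of the WT LSK (0.65, adjusted p = 0.0661). In GMP, WT read 49.3, 35.3 and 35.5 CPM and Flt3 had a median of 55.7 with overlapping ranges (0.32 ± 0.22, adjusted p = 0.305).

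Bbc3 (chr7:16308393-16318205), which encodes Puma, an antagonist of the survival proteins of the Bcl2 family, had Flt3 effects that differed between LSK and GMP. In WT LSK it read 16.1, 11.1 and 27.7 CPM. The Flt3 LSK libraries ran from 2.35 to 17.8 CPM with a median of 8.46, a difference of −0.98 ± 0.37 (adjusted p = 0.073). In WT GMP it read 5.91, 5.97 and 5.37 CPM. All 11 Flt3 GMP libraries were above these, from 6.31 to 21.6 CPM with a median of 12.6, a difference of 0.98 ± 0.40 (adjusted p = 0.065). Neither change passed the test on its own, while the difference between them did, at −1.96 ± 0.54 (adjusted p = 0.012). The LSK change passed with library size alone (−1.10, adjusted p = 0.037), without a filter (−0.99, adjusted p = 0.048) and without replicate 1 of the 6-week Flt3 LSK (−1.24, adjusted p = 0.017). The GMP change passed with library size alone or median-ratio factors (1.10, adjusted p = 0.028 and 0.035), with the 2-week groups alone (1.26, adjusted p = 0.037) and without replicate 3 of the 4-week Flt3 GMP (1.05, adjusted p = 0.046).

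The difference of the Bbc3 effects lost its call in the 4-week groups alone (−1.21, adjusted p = 0.361) and without replicate 3 of the WT LSK (−1.51, adjusted p = 0.105), the WT library where Bbc3 was highest. The WT GMP values rest on 6, 12 and 8 counts. Between the WT populations Bbc3 was higher in LSK by 1.38 ± 0.48 (adjusted p = 0.024), a call lost without any of the 3 WT GMP libraries or without replicate 3 of the WT LSK (0.93 to 1.42, adjusted p = 0.0521 to 0.212).

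Trp53inp1 (chr4:11156431-11174379), which encodes a nuclear protein of the stress response that promotes p53 activity, had its high levels in Flt3 LSK at 2 weeks. There it read 55.7, 23.8 and 60.4 CPM, on 46, 33 and 66 counts. WT LSK read 11.9, 4.95 and 6.15 CPM. The 9 Flt3 LSK libraries of 4 to 8 weeks ran from 2.35 to 11.2 CPM with a median of 3.86. All 3 libraries at 2 weeks thus lay above every other LSK library of the table. The difference of 2 weeks from 4 to 8 weeks was 3.54 ± 0.37 (adjusted p = 1.1e-07), or 11.7-fold, and leaving out each library in turn gave 3.25 to 3.88. Averaged over all time points, Flt3 LSK differed from WT by 0.18 ± 0.42 (adjusted p = 0.849), and the 2-week groups alone by 2.83 ± 0.48 (adjusted p = 8.0e-05). Trp53inp1 and Cdkn1a were called in opposite directions in the 2-week comparison, where 17.1% of 9892 genes were called (11.0% higher and 6.07% lower at 2 weeks). The 8 lymphoid markers summed to 5749 to 15329 CPM in 2-week LSK and 345 to 668 later, with Rag1 at 0 at 2 weeks, and 4 of the 5 tested were higher at 2 weeks. Igj (Jchain) weighs most in these sums, with an average log2 CPM of 11.4 over the LSK libraries against 8.32 for Dntt and 6.53 for Cd79b. The part of the lymphoid markers was not tested, nor was that of the dendritic cell markers given above. In GMP the gene was near the detection limit, with WT at 2.96, 0 and 2.01 CPM and Flt3 at 0 to 4.82. The WT populations differed by 2.14 ± 0.76, higher in LSK (adjusted p = 0.028), but not without replicate 2 of the WT GMP (1.36, adjusted p = 0.207) or replicate 1 of the WT LSK (1.64, adjusted p = 0.166).

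In WT LSK against WT GMP, then, 2 of 6 members were called, both higher in LSK, where 29.6% of 10287 genes were called (16.1% higher and 13.5% lower). Bax gave −0.60 ± 0.27 (adjusted p = 0.089), and −0.65 (adjusted p = 0.042) with each animal's LSK and GMP paired by a block. Mdm2 gave 0.42 ± 0.25 (adjusted p = 0.206), and with median-ratio factors or library size alone 0.65 and 0.76 (adjusted p = 0.042 and 0.014), where the median gene moved from 0.12 to 0.35 and 0.46. In 2-week against later Flt3 GMP, Cdkn1a was the only call among 5 members, where 24.4% of 9122 genes were called (15.8% higher and 8.63% lower at 2 weeks).

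**Figure D3:**
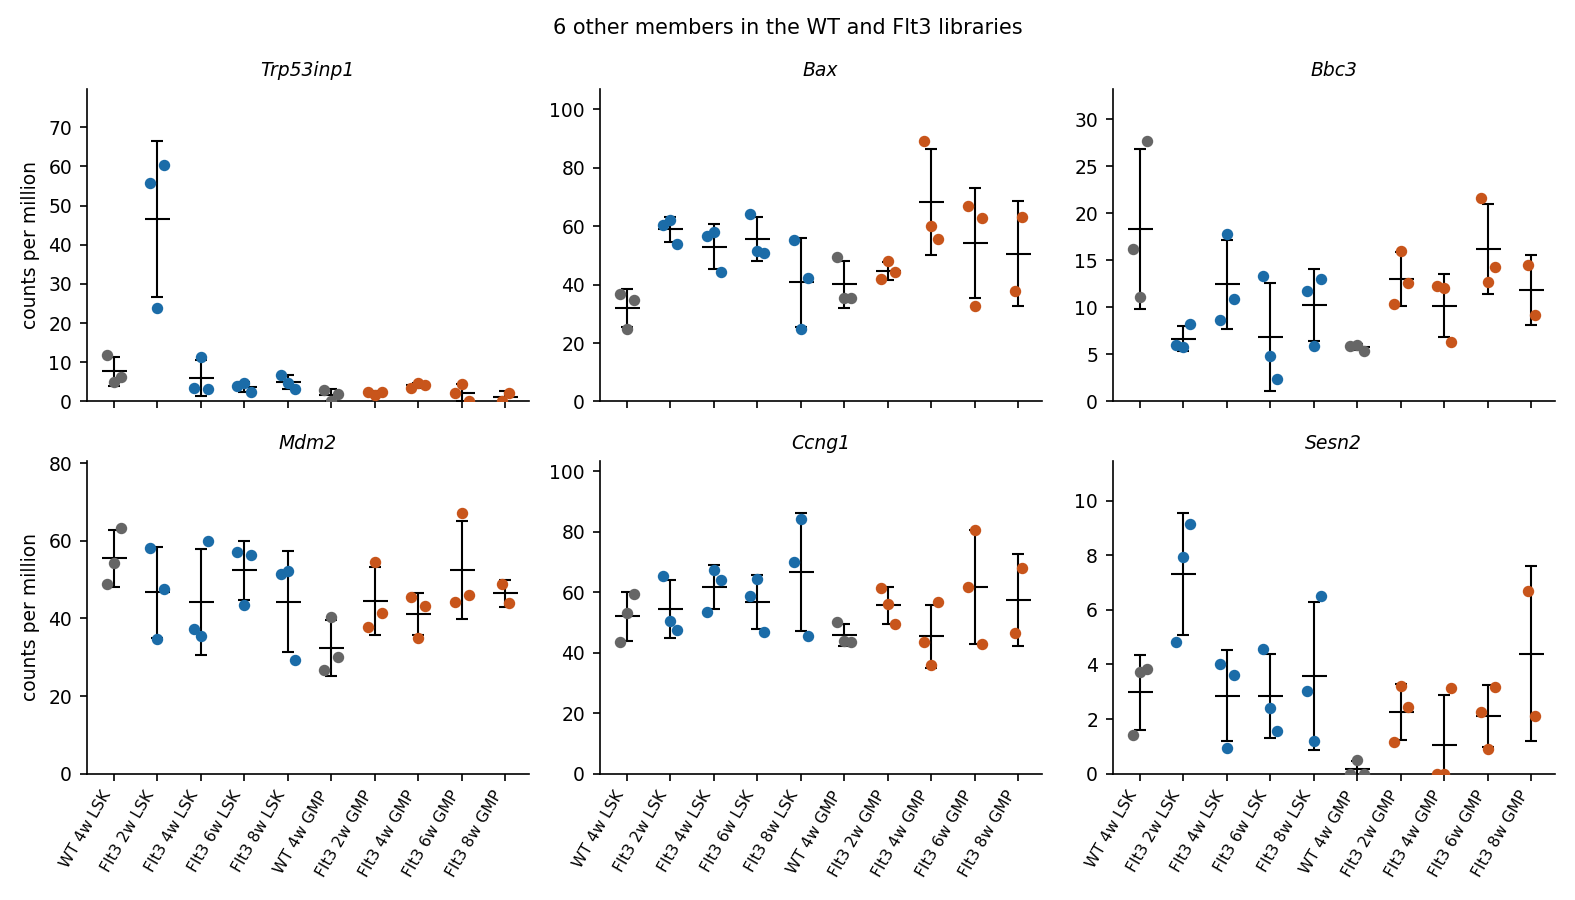
CPM (vertical axes, linear from 0) of Trp53inp1, Bax, Bbc3, Mdm2, Ccng1 and Sesn2 in every library of the WT and Flt3 groups, with points for libraries and bars for the mean ± SD. Trp53inp1 is high only in the 2-week Flt3 LSK libraries (23.8 to 60.4), and Bbc3 is lower in WT GMP (5.37 to 5.97) than in every Flt3 GMP library.

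Phlda3, Zmat3, Sesn2 and Eda2r did not pass the default filter on low counts in the first table, and without a filter none of them was called there. Phlda3, whose product blocks membrane recruitment of the kinase Akt, ran from 0 to 3.49 CPM. Zmat3, which encodes an RNA-binding zinc-finger protein, ran from 0 to 3.63 CPM. Eda2r, a receptor gene of the TNF receptor family, had 0 counts in WT LSK, which allows up to 0.479 CPM over the group, and at most 3.34 CPM elsewhere. Sesn2, which encodes sestrin 2, a stress protein that restrains mTORC1, ran from 1.40 to 3.84 CPM in WT LSK and from 4.84 to 9.15 in 2-week Flt3 LSK. Those Sesn2 ranges do not overlap, but they rest on so few counts that counting error weighs on them. How many of all genes separate in this way was not counted. With the filter of 5 CPM, Sesn2 was tested and gave 1.56 ± 0.57 for 2-week against later Flt3 LSK (adjusted p = 0.059) and 3.02 ± 1.19 for WT LSK against WT GMP (adjusted p = 0.051). When single libraries were left out it entered 13 fits of the 2-week comparison (1.43 to 1.76) and passed only without replicate 3 of the 8-week Flt3 LSK (1.66, adjusted p = 0.044). At this depth no difference can be read for the other 3.

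No other member followed Cdkn1a closely across the 29 libraries, with r from −0.13 to 0.43. Pearson's r of log2(CPM + 1) with Cdkn1a was 0.43 for Bax and 0.30 for Ccng1. It was 0.068 for Mdm2, 0.089 for Trp53inp1 and −0.13 for Bbc3. Among 6267 expressed genes, those most like Cdkn1a were Ifitm1 (r = 0.91), Mtmr9 (0.90), Nov (0.90), Tmem108 (0.89) and Bin1 (0.87). These genes had a mean log2(CPM + 1) of 4 or more. Bbc3, Trp53inp1, Sesn2, Phlda3, Zmat3 and Eda2r lay below that level, so counting error weighs more on their r. Trp53 gave 0.68 and Flt3 0.58. Ifitm1, an interferon-inducible membrane protein gene, averaged 364 CPM in WT LSK and 3673 in Flt3 LSK at 4 weeks, and 159 and 2451 in GMP. Nov, which encodes the secreted protein CCN3, had 0 counts in all 6 WT libraries. The points share libraries, depth and the same WT and Flt3 contrast, so these values describe likeness only.

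Of 34 other p53 targets, 24 had enough counts in LSK: 2 rose and 4 fell in Flt3 against WT, with a median of −0.06. Pmaip1, which encodes the death protein Noxa, rose by 1.86 ± 0.47 (adjusted p = 0.0058). Sesn1, a sestrin gene, fell by 0.72 ± 0.14, and the DNA damage gene Gadd45a fell by 1.22 ± 0.31. In GMP 3 of 21 rose and 4 fell, with a median of −0.18, against 0.04 for all genes. Pmaip1 rose there by 1.94 ± 0.39 and Btg2, an anti-proliferative gene, by 1.09 ± 0.21. Rps27l, a ribosomal protein gene, fell by 0.80 ± 0.16 in GMP and rose by 0.34 ± 0.09 in LSK. Of 4 other CDK inhibitor genes tested in LSK, none rose, and Cdkn1c and Cdkn1b fell by 1.31 and 0.97. Of 19 genes repressed through the DREAM complex, a cell cycle repressor that acts downstream of p21, none fell in Flt3 LSK and 2 rose, Birc5 and Kif23, by 0.36 and 0.53. In GMP 4 of 19 rose and 1 fell, with Mki67 higher by 1.18. Of all genes tested, 6.89% rose and 8.07% fell in LSK, and 13.1% and 13.2% in GMP. With such shares, no rise among 4 genes and no fall among 19 cannot be read as particular to them. In 2-week against later Flt3 GMP, 6 of 21 other p53 targets rose and 2 fell, while Cdkn1a fell. The rises were led by Btg2 (3.12 ± 0.17), Perp, a death and adhesion gene (3.17 ± 0.48), and Gadd45a (2.90 ± 0.27). Of all genes tested in that comparison, 15.8% were higher and 8.63% lower at 2 weeks.

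The second table asks how the partner mutation sets these genes, with Npm1 Flt3 set against Dnmt3a Flt3. Npm1 encodes a nucleolar protein and Dnmt3a a DNA methyltransferase. In LSK, Cdkn1a was higher in Npm1 Flt3, and no other of the 10 members passed the test, where 11.6% of 19470 genes were called (7.8% higher and 3.76% lower). The median of the 10 was 0.74, against −0.0038 for all genes tested. With 2 Dnmt3a Flt3 libraries in each fit, single libraries decided several calls.

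Cdkn1a read 77.6, 142, 149 and 179 CPM in Npm1 Flt3 LSK. Dnmt3a Flt3 LSK read 47.8 and 48.5 CPM, and the library of conflicting label 34.7. The groups do not overlap, and the difference was 1.59 ± 0.40 (adjusted p = 0.031). It was lost without replicate 2 (1.69, adjusted p = 0.161) or 3 (1.70, adjusted p = 0.152) of the Dnmt3a Flt3 LSK and without replicate 4 of the Npm1 Flt3 LSK (1.37, adjusted p = 0.0517). Bax read 130, 119, 165 and 154 CPM in Npm1 Flt3 LSK and 74.8 and 78.3 in Dnmt3a Flt3 LSK. Its groups do not overlap either, at 0.95 ± 0.29 (adjusted p = 0.061), and it passed with DESeq2 (0.86, adjusted p = 0.016), no filter or the filter of 5 CPM, library size alone, the title-number block (0.93, adjusted p = 0.022), the conflicting library added, and without replicate 2 of the Npm1 Flt3 LSK (1.16, adjusted p = 0.044). Phlda3 read 1.73, 1.25, 1.25 and 0.341 CPM against 0.0156 and 0.0763, which rest on 1 and 5 counts, with 4.58 ± 1.60 (adjusted p = 0.094), and passed with DESeq2 (adjusted p = 0.0019), the title-number block (adjusted p = 0.039) and without replicate 4 of the Npm1 Flt3 LSK (adjusted p = 0.045).

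Mdm2, Ccng1 and Sesn2 lay on the other side, higher in Dnmt3a Flt3 LSK in the ranges and without a call. Mdm2 ran from 41.0 to 56.3 CPM in Npm1 Flt3 LSK and read 72.7 and 72.6 in Dnmt3a Flt3 LSK (−0.51, adjusted p = 0.221). Ccng1 ran from 34.6 to 65.2 CPM and read 72.9 and 98.3 (−0.64, adjusted p = 0.266). Sesn2 ran from 13.0 to 31.4 CPM and read 37.9 and 37.7 (−0.65, adjusted p = 0.262). None of these ranges overlap, but only 2 Dnmt3a Flt3 libraries stand on one side. How many of all genes separate in this way was not counted, so the separation cannot be read as particular to these genes. With the library of conflicting label in the fit, Mdm2 was called lower in Npm1 Flt3 (−0.62, adjusted p = 0.046). By its code that library comes from the mouse of Dnmt3a Flt3 LSK replicate 2, so it adds no separate animal.

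In GMP, 0 of 8 members tested passed edgeR's test while 20.8% of 17200 genes were called (12.5% higher and 8.22% lower). Unadjusted p was under 0.05 for 4 of them, and for 5724 of the 17200 genes. DESeq2 called 3 of the 8, and 5353 of the 17200 genes. Cdkn1a read 43.0, 71.3, 52.7 and 68.5 CPM in Npm1 Flt3 GMP and 37.6 and 31.8 in Dnmt3a Flt3 GMP (0.73 ± 0.26, adjusted p = 0.087). Bax read 101, 87.3, 115 and 116 CPM against 66.9 and 72.7 (0.54 ± 0.17, adjusted p = 0.064). Ccng1 ran from 40.5 to 56.7 CPM against 67.5 and 67.8 (−0.53 ± 0.20, adjusted p = 0.098). The ranges of these 3 genes do not overlap, nor do those of Sesn2, at 11.2 to 19.2 CPM against 27.5 and 24.2 (−0.71 ± 0.29, adjusted p = 0.134). Here too only 2 Dnmt3a Flt3 libraries stand on one side, and how many of all genes separate was not counted. Without replicate 1 of the Npm1 Flt3 GMP Cdkn1a passed (0.85, adjusted p = 0.046), and without replicate 2 Ccng1 (−0.64, adjusted p = 0.049) and Bax (0.60, adjusted p = 0.042). With the library of conflicting label in the fit, Cdkn1a and Bax were called higher and Ccng1 and Sesn2 lower (adjusted p = 0.013 to 0.038), where 5403 of 15827 genes were called. By its code that library comes from the mouse of Dnmt3a Flt3 GMP replicate 1, so it adds no separate animal.

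**Figure D4:**
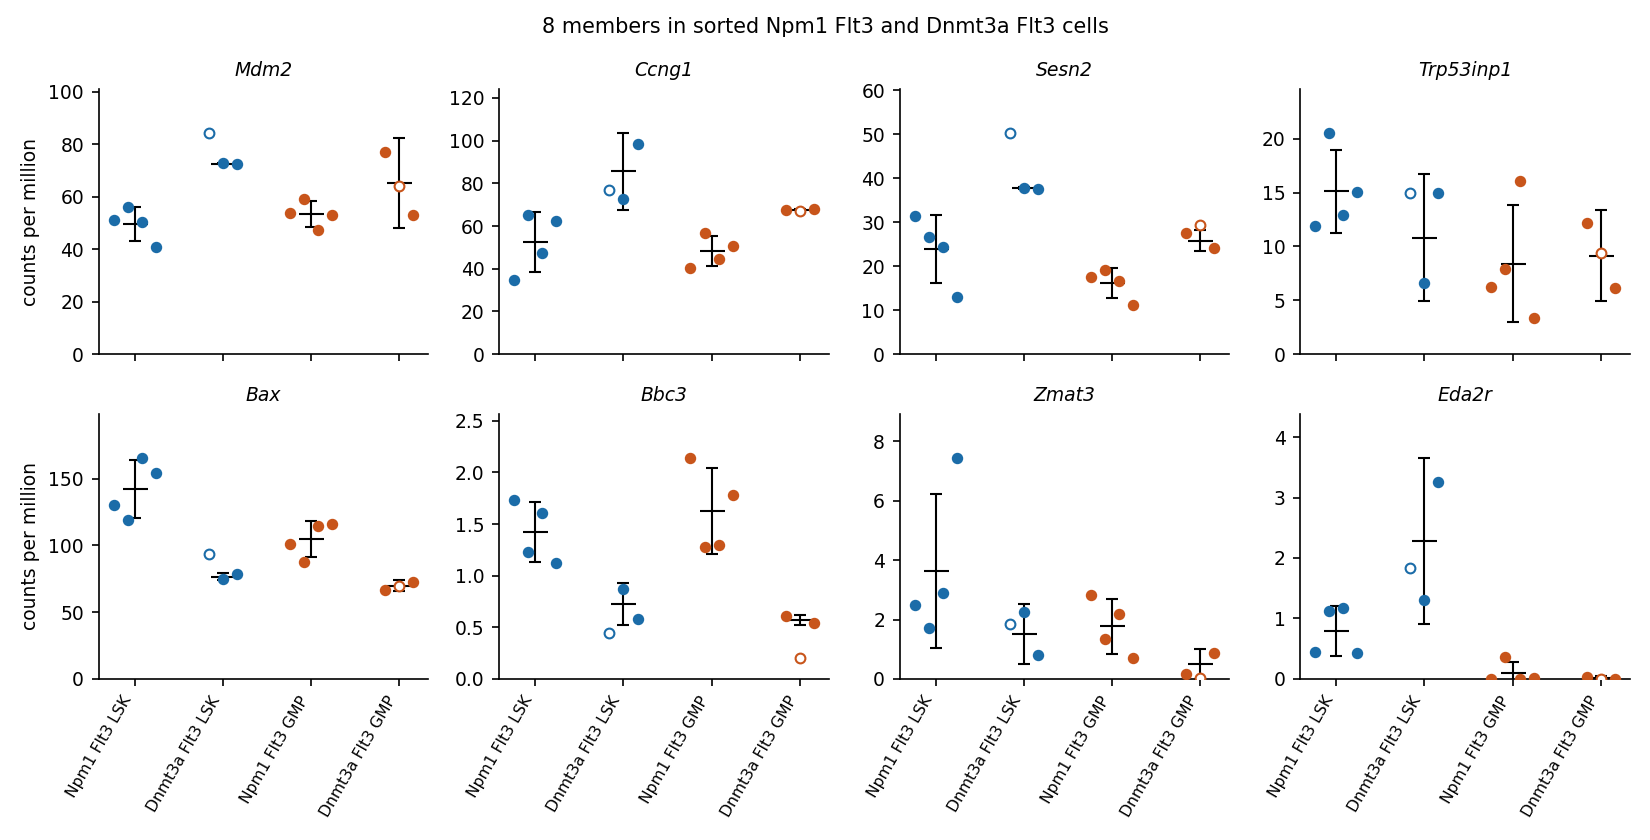
CPM (vertical axes, linear from 0) of 8 members in the sorted groups of Npm1 Flt3 and Dnmt3a Flt3, with points for libraries, open points for the libraries of conflicting label and bars for the mean ± SD. Bax is higher in every Npm1 Flt3 library than in the Dnmt3a Flt3 libraries of the same cell type, and Ccng1 and Sesn2 are lower. None of these 3 genes was called under the default settings.

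Dendritic cell markers again moved with the genotype, at 7050 to 30538 CPM in Npm1 Flt3 LSK and 688 to 1005 in Dnmt3a Flt3 LSK, with all 8 higher. In GMP they summed to 23948 to 49464 and 85.2 to 151, with 6 of 8 higher. Their part in these differences was not tested. Of 34 other p53 targets, 3 were higher and 1 lower in Npm1 Flt3 LSK, and 6 were higher and none lower in Npm1 Flt3 GMP. Of all genes tested, 7.8% were higher and 3.76% lower in LSK, and 12.5% and 8.22% in GMP. Btg2 was higher by 3.10 ± 0.45 in LSK and 3.08 ± 0.27 in GMP, and Pmaip1 by 2.06 ± 0.24 in GMP.

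Within Npm1 Flt3 mice, Cdkn1a was higher in LSK than in GMP by 1.08 ± 0.28 (adjusted p = 0.038), the only call among 10 members, where 4.62% of 21227 genes were called (2.35% higher and 2.27% lower). With the LSK and GMP of an animal paired by a block it gave 0.82 ± 0.25 (adjusted p = 0.105). Leaving out any of 8 libraries also ended the call (0.86 to 1.18, adjusted p = 0.0509 to 0.111): replicates 2 and 3 of the Dnmt3a Flt3 LSK, 1, 3 and 4 of the Npm1 Flt3 GMP, and 2, 3 and 4 of the Npm1 Flt3 LSK.

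The last comparison asks how the genes stand after removal of mutant Flt3 in Npm1 Flt3 Lin- HSPCs, with 3 libraries under TAM and 3 under Vehicle. Flt3 itself ran from 83.3 to 183 CPM under TAM and 160 to 209 under Vehicle, ranges that overlap. Under edgeR's default scaling it gave −1.68 ± 0.39 (adjusted p = 0.0013). The scaling factors were 1.32 to 1.67 for TAM and 0.476 to 0.865 for Vehicle, so the size of that value depends on the scaling. The counts do not tell the mutant from the other allele. Cdkn1a, Bax and Ccng1 were lower after TAM under both edgeR's default scaling (TMM) and scaling by library size alone, an alternative added after the data were seen. Under TMM 5 of 10 members fell and none rose, where 31.4% of 25269 genes were called (10.1% higher, 21.3% lower). Under library size alone 3 fell and 3 rose, where 45.1% were called (36.8% higher, 8.33% lower). The median gene stood at 0.56 under TMM and 1.64 under library size alone, so directions near these sizes depend on the scaling.

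Cdkn1a read 83.4, 77.5 and 84.2 CPM under TAM and 159, 205 and 193 under Vehicle. The groups do not overlap, and the fall was −2.45 ± 0.39 under TMM (adjusted p = 1.4e-05) and −1.18 ± 0.16 under library size alone (adjusted p = 0.00066). Bax read 74.9, 95.7 and 61.1 CPM against 197, 229 and 204. It fell by 2.67 ± 0.40 under TMM (adjusted p = 7.1e-06) and by 1.44 ± 0.19 under library size alone. Ccng1 read 97.3, 152 and 213 CPM against 224, 302 and 312, and fell by 2.10 ± 0.41 and 0.86 ± 0.26. Relative to the median gene under TMM these falls were −3.01 for Cdkn1a, −3.23 for Bax and −2.67 for Ccng1. Under TMM each kept its call when any single library was left out.

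Trp53inp1, Sesn2 and Zmat3 had higher CPM after TAM, with no overlap, but no call under TMM, and all 3 were called under library size alone. On that scale the median gene gave 1.64, more than any of these 3, and 36.8% of genes were called higher. The share of all genes without overlap was not counted. Trp53inp1 read 60.5, 96.9 and 92.2 CPM under TAM and 37.9, 28.4 and 27.5 under Vehicle, with 0.25 under TMM (adjusted p = 0.583) and 1.42 ± 0.24 under library size alone (adjusted p = 0.0020). Sesn2 read 59.4, 41.2 and 37.5 CPM against 30.7, 17.7 and 22.8, with −0.21 (adjusted p = 0.637) and 0.96 (adjusted p = 0.026). Zmat3 read 23.5, 26.0 and 30.9 CPM against 17.4, 11.3 and 13.4, with −0.22 (adjusted p = 0.634) and 0.94 (adjusted p = 0.036). With the filter of 5 CPM, also under TMM, Trp53inp1 was called (0.78, adjusted p = 0.029), and Sesn2 and Zmat3 gave 0.32 and 0.30 without a call. The direction of Sesn2 and Zmat3 and the call of Trp53inp1 therefore rest on the processing. Bbc3, at 3.19, 6.91 and 4.46 CPM against 2.89, 1.04 and 1.98, was called under neither (0.27, adjusted p = 0.728, and 1.31, adjusted p = 0.123).

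Mdm2 and Eda2r fell under TMM, by 1.17 ± 0.38 (adjusted p = 0.021) and 1.26 ± 0.49 (adjusted p = 0.047), but gave 0.03 and 0.07 under library size alone. Mdm2 read 53.6, 103 and 92.0 CPM under TAM and 80.3, 82.8 and 80.3 under Vehicle, so the groups overlap. Its call under TMM was lost without replicate 1 (−0.75, adjusted p = 0.126) or 3 of TAM (−1.06, adjusted p = 0.0706) or replicate 2 of Vehicle (−0.89, adjusted p = 0.0760), and with the filter of 5 CPM (−0.61, adjusted p = 0.090). Eda2r read 16.2, 9.17 and 7.11 CPM against 5.75, 12.5 and 12.7, also overlapping. It lost its call without any TAM library or without replicate 2 or 3 of Vehicle (adjusted p = 0.102 to 0.276), with the title number as a block (−1.16, adjusted p = 0.068), and with the filter of 5 CPM (−0.64, adjusted p = 0.281). Phlda3 read 2.33, 1.82 and 2.43 CPM against 2.17, 2.30 and 2.86 (−1.39 ± 0.62, adjusted p = 0.083), and passed with median-ratio factors (−1.78, adjusted p = 0.0097) and DESeq2 (−1.78, adjusted p = 0.0058).

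**Figure D5:**
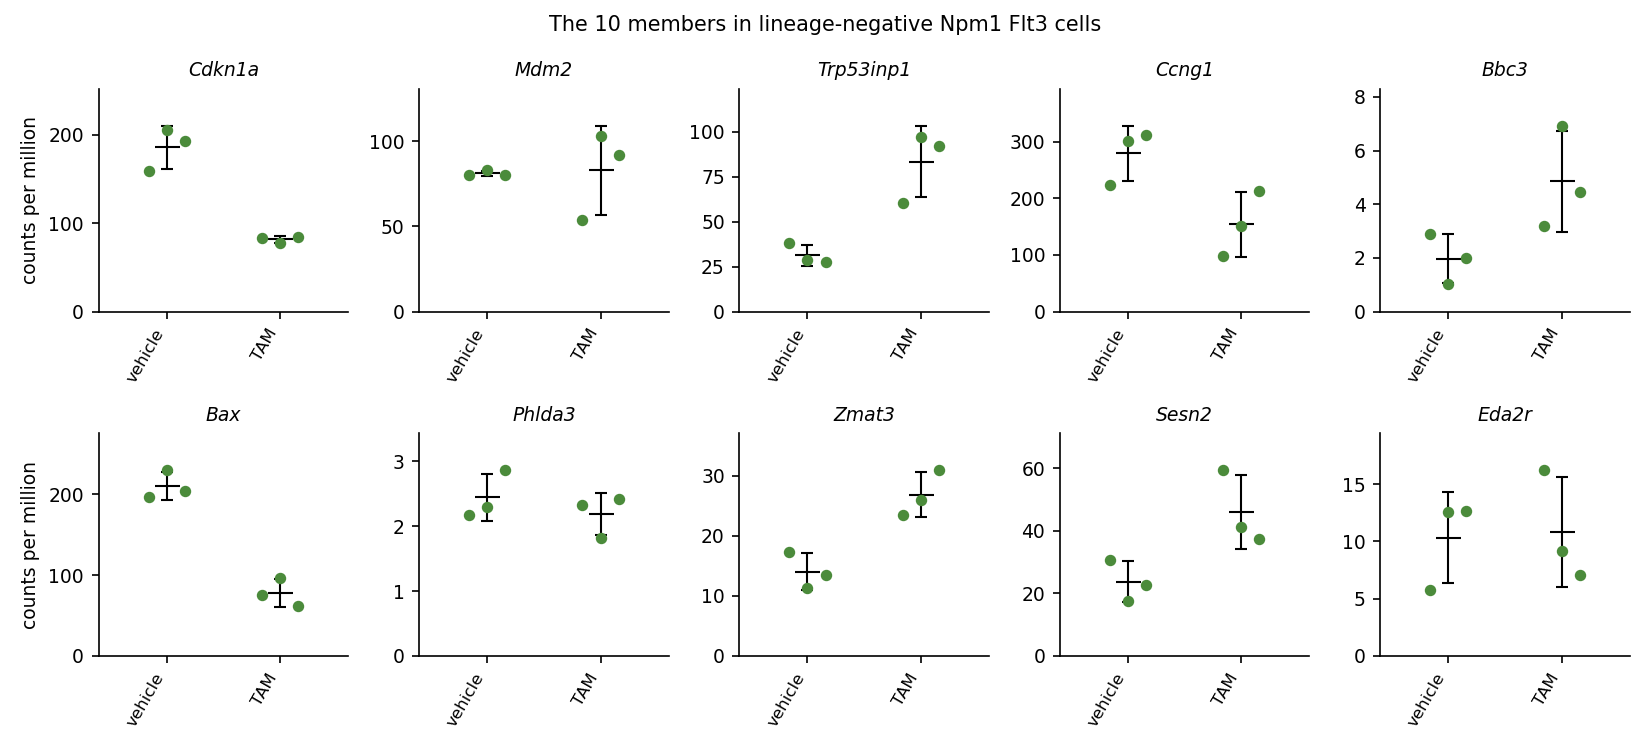
CPM (vertical axes, linear from 0) of the 10 members in Lin- HSPCs of Npm1 Flt3 mice after 7 days of Vehicle or TAM, 3 libraries each, with bars for the mean ± SD. On this library-size scale Cdkn1a, Bax and Ccng1 are lower after TAM. Trp53inp1, Sesn2 and Zmat3 are higher, but by less than the median gene (1.64). Under TMM these last 3 gave no call (0.25, −0.21 and −0.22). With the filter of 5 CPM Trp53inp1 was called at 0.78, where Sesn2 and Zmat3 gave 0.32 and 0.30.

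The makeup of the Lin- HSPCs differed as well. Erythroid markers summed to 913 to 1526 CPM under TAM and 2.72 to 10.8 under Vehicle, with 7 of 7 higher. Dendritic cell markers summed to 28145 to 35578 and 2414 to 4975, with 8 of 8 higher, and GMP markers to 644 to 976 and 5209 to 6339, with 5 of 7 lower. Their part in the changes of the p53 targets was not tested. Trp53 fell by 1.74 ± 0.37 under TMM (adjusted p = 0.00053), a size that also depends on the scaling. Of 34 other p53 targets, 1 rose and 15 fell under TMM, with a median of −0.85, and 6 rose and 11 fell under library size alone. Of all genes tested, 10.1% rose and 21.3% fell under TMM, and 36.8% and 8.33% under library size alone. Those that fell under TMM included Psrc1, a spindle gene, by 3.24, Fdxr, a mitochondrial electron carrier gene, by 2.68, and Rps27l by 2.81, and Btg2 rose by 1.52 ± 0.37. Of 20 DREAM targets, 19 fell under TMM, with a median of −2.78, and 17 under library size alone, with a median of −1.50. Cdk1, the kinase of mitotic entry, fell by 3.14 under TMM.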

How the data were processed

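The authors deposited whole-number read counts for each gene without normalising them. The submitters' processing notes name STAR, featureCounts and mm10, and versions, annotation and strand setting are not given in the sources used here. Per the labels, a paired-end and a single-end 3′ kit were used, without saying for which sample, so levels cannot be compared between genes or between tables. Nothing in the labels says that replicates are separate mice except the sample codes, and p-values measure only the spread between libraries. None of the 54 replicate pairs agreed within sampling noise (chi-square over its degrees of freedom at least 2.26).

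All tests used R 4.3.3 and edgeR 4.0.16: filterByExpr, TMM scaling, the robust quasi-likelihood F test, and Benjamini-Hochberg adjustment over all genes tested at 0.05. LSK and GMP of the first table were fitted apart (15 libraries each) and together (30) for differences between them, sorted libraries of the second table by cell type or together (12), and TAM with Vehicle apart (6). The SE is the size of the log2 fold change over the square root of F. A group at 0 was given a limit of 3 counts over its summed total, which covers counting error only. Alternatives were DESeq2 1.42.0, median-ratio size factors, library size alone, no filter or one of 5 CPM, replicate blocks, single time points, and leaving out each library. The fits were checked on simulated counts with known changes.

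The members and the 15 lists (171 genes) were chosen with earlier results of these data known. All members are named, with up to 4 genes per list by smallest adjusted p, Trp53 and Mdm4, and the 5 genes most like Cdkn1a. Markers without a row, Hbb-bs and Hbb-bt, were left out. An overlapping opposite-strand gene shares 273 of the 3553 exon bases of Cdkn1a, and a same-strand gene 192 of the 1576 of Bax, and neither is in the tables. Gene positions are from GENCODE M21. LSK and GMP whose codes share a number come from the same animal: their residuals correlated at −0.104 to 0.258 over 14 pairs of the first table and −0.0933 to 0.421 over 4 of the second.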

Additional observations from a re-analysis of the deposited data

Results flagged for a closer look

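In the 4 Npm1 Flt3 GMP libraries, replicate 1 stood apart for Phlda3, at 1.0194 CPM against 0.0582 to 0.0685 in the others. Replicate 2 of the same group stood apart for Eda2r, at 0.3635 CPM against 0 to 0.0171. Dixon's test at 95% was applied to 20 sets of 4 libraries, these 2 passed it, and chance marks about 1 in 20.

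The Flt3 effect differed between LSK and GMP for Cdkn1a, by 1.139 on the log2 scale, larger in LSK, and for Bbc3, by −1.957, both by the interaction term of edgeR's fit of 30 libraries. Each was called in the fit of all time points and in neither case in the 4-week groups alone.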

How the results depend on the processing

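Under the alternatives, 1442 of 1525 repeats of the 72 member tests kept their direction and call (a change of sign between uncalled values counts as kept), 39 lost and 40 gained a call, and 4 reversed: with TAM under library size alone, Mdm2 gave 0.033, Eda2r 0.070, Zmat3 0.94 and Sesn2 0.96. The cause was not tested for any change here.

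Members called, in either direction unless stated, moved as follows. Flt3 LSK against WT gave 1 in the 4-week groups and without the 2-week libraries, and 3 with the 2-week groups, library size alone or no filter. Flt3 GMP against WT gave 2 with median-ratio factors and with library size alone. The difference of Flt3 effects gave 1 with DESeq2 and 0 at 4 weeks. Npm1 Flt3 against Dnmt3a Flt3 gave 3 in LSK with DESeq2, the title-number replicate block or the libraries of conflicting label, and 2 with library size alone, no filter or the filter of 5 CPM. In GMP it gave 3 with DESeq2 (5353 of 17200 genes called), 2 with the filter of 5 CPM (4040 of 10251) and 4 with the conflicting library (5403 of 15827). Npm1 Flt3 LSK against GMP gave 0 with the animal as a replicate block. WT LSK against GMP gave 3 with median-ratio factors, library size alone or the animal block. TAM gave 6, all lower, with DESeq2 or median-ratio factors, where 8851 and 8330 of 25269 genes were called. Library size alone gave 3 lower and 3 higher, where 11399 were called. The filter of 5 CPM gave Cdkn1a, Bax and Ccng1 lower and Trp53inp1 higher, where 6889 of 13785 genes were called. The title-number block gave 4, all lower, where 10299 of 25269 were called.

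Genes called moved to 912 (DESeq2) and 1364 (4 weeks) in Flt3 GMP against WT, where DESeq2 without the near-empty library gave 2314. They moved to 649 (DESeq2) and 424 (4 weeks) for the difference of effects. At 2 weeks against later they moved to 2927 in LSK with library size alone, and in GMP to 987 with DESeq2 and 3803 with library size alone. Npm1 Flt3 against Dnmt3a Flt3 gave 4634 (DESeq2), 3496 (5 CPM), 3465 (replicate block) and 3597 (conflicting library) in LSK, and 2127 (replicate block) and 5403 (conflicting library) in GMP. Npm1 Flt3 LSK against GMP gave 2188 with DESeq2.

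Leaving out each library in turn gave these ranges of members and genes called: Flt3 LSK against WT 1 to 3 and 1049 to 1596, GMP 1 to 2 and 1557 to 2569, the difference of effects 0 to 2 and 659 to 1400, WT LSK against GMP 0 to 2 and 2305 to 3144. For 2 weeks against later they were 1 to 3 and 988 to 1888 in LSK, and 1 to 1 and 1738 to 2388 in GMP. For Npm1 Flt3 against Dnmt3a Flt3 they were 0 to 2 and 433 to 2554 in LSK, and 0 to 2 and 992 to 3523 in GMP. For Npm1 Flt3 LSK against GMP they were 0 to 1 and 637 to 1257, and for TAM 3 to 5 and 5142 to 9876.

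Title numbers pair no samples by the labels: residuals of TAM and Vehicle libraries of the same number correlated at −0.0761 to 0.119. Depth limits the first table most, where Phlda3, Zmat3, Sesn2 and Eda2r did not pass the default filter on low counts. Scaling changed the split of called genes: library size alone gave 9294 higher and 2105 lower after TAM, against 2544 and 5382 under TMM, and 492 and 1145 in Flt3 LSK against WT. In Flt3 GMP against WT, median-ratio factors gave 1580 and 782 and library size alone 1661 and 852. For the difference of effects these gave 353 and 1016, and 302 and 1346. For WT LSK against GMP they gave 2562 and 819, and 3240 and 654. At 2 weeks library size alone gave 666 and 2261 in LSK and 871 and 2932 in GMP.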
